A study of Mus musculus with 10 samples.

Results

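Unmutated IgM rearrangements of low abundance were described in the deep cervical lymph nodes of glioma-bearing mice. A heavy-chain sequence belonged to the set if it was productive, carried the constant gene IGHM, had a deposited count under 100 and had 0 mismatches to its germline V gene over at least 200 aligned bases. The rule kept 172249 sequences of 313384 productive heavy-chain sequences and of 448970 sequences of all chains. Grouped by V gene, J gene and junction nucleotides within a mouse, they made 170750 clonotypes, the unit of all shares given here unless sequences or counts are named. All 10 mice were labelled wild type, without a further strain name, and carried GL261 cells, a mouse glioma line, injected into the brain. They received isotype IgG (n = 5) or anti-CTLA-4, an antibody against an inhibitory T cell receptor (n = 5), and nodes were taken at day 20. RNA came from the whole cell suspension of the nodes of 1 mouse per library, without a sort for B cells, so fewer cells of a kind and less receptor RNA per cell cannot be told apart. There was no tumour-free group, and the time and dose of the antibodies are not given in the labels.

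A B cell builds its heavy chain by joining 1 V, 1 D and 1 J segment, with bases trimmed and added at the joints. The joint forms CDR3, the most variable loop of the antigen binding site. Cells that have not met antigen carry this product unmutated and display it as IgM and IgD, both spliced from the same transcript, whereas cells that have passed through a germinal center carry mutations in V and often switch to IgG, IgA or IgE. B-1 cells are another source of unmutated IgM and use a small set of V genes, among them IGHV11-2 and IGHV12-3, whose products can bind phosphatidylcholine.

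Most of these rearrangements were private to 1 mouse, and their variety lay in the joint. Shown as examples are 4 junctions of the most used V gene, IGHV1-26, each with another J gene, all of 39 bases. They run from the codon of the conserved cysteine to that of the conserved tryptophan, with the D bases and the added bases, as the deposited columns give them, in capitals.
IGHV1-26 with IGHJ1: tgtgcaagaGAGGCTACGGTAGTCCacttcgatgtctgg
IGHV1-26 with IGHJ2: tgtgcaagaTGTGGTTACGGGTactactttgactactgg
IGHV1-26 with IGHJ3: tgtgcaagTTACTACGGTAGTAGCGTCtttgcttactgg
IGHV1-26 with IGHJ4: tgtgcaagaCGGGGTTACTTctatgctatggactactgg

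The exceptions were few. The 5 rearrangements found in most mice are printed because their counts are described further on, with capitals as before. Junction A was found in 10 mice, B in 9, C and D in 8 each and E in 7. No D segment was called in A, B, C and E, so all bases between V and J count as added there. A missing call does not tell whether these bases came from a D segment. The capitals of A also lie within those of the IGHJ3 example above, where IGHD1-1 was called.
A, IGHV11-2 with IGHJ1: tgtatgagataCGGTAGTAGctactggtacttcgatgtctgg
B, IGHV11-2 with IGHJ1: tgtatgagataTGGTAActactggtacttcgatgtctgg
C, IGHV11-2 with IGHJ1: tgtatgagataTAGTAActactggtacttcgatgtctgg
D, IGHV11-2 with IGHJ1: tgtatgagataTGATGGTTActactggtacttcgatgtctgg
E, IGHV1-47 with IGHJ3: tgtgcaaggGGGGggtttgcttactgg

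Total deposited counts ranged from 382184 to 790139 per mouse and productive heavy-chain sequences from 23685 to 46107. The number of clonotypes in the set ranged from 14422 to 25308 in isotype mice and from 12080 to 23117 in anti-CTLA-4 mice. The set held 54.8% ± 2.55 of productive heavy-chain sequences (SD, n = 10) but 12.7% ± 6.03 of their deposited counts, because its counts were small. A count of 1 was recorded for 62.9% ± 11.3 of its sequences, and for 55.6% ± 10.8 in isotype mice against 70.1% ± 6.49 in anti-CTLA-4 mice (n = 5 each). Because the count was part of the rule, this difference was not tested.

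The limits of the rule lay at different densities of sequences. Just inside the count limit, 31 sequences had counts of 80 to 99, and a window of the same width just outside it held 24. Just outside the mismatch limit lay 34728 low-count IgM sequences with exactly 1 mismatch. Per mouse, 82.8% ± 1.38 of low-count IgM clonotypes were unmutated (SD, n = 10).

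Few clonotypes of the set were also found outside it. The rearrangement of an unmutated IgM clonotype also occurred with IGHD in the same mouse for 1.31% ± 0.503 of clonotypes and with a switched class for 0.404% ± 0.368 (SD, n = 10). The switched share was 0.608% ± 0.428 in anti-CTLA-4 and 0.199% ± 0.131 in isotype mice (n = 5 each) and was not tested. With mutated IgM it occurred for 3.64% ± 1.02, 3.07% ± 0.508 in anti-CTLA-4 and 4.21% ± 1.13 in isotype mice, also without a test. The V genes listed for B-1 cells, IGHV11-1, IGHV11-2, IGHV12-3 and IGHV7-1, gave 784 clonotypes, 0.459% ± 0.0553 of the set. IGHD, the partner that a mature naive cell expresses, was thus seen for few clonotypes at this depth, and IGHM alone does not tell a naive cell from other unmutated IgM cells. The set is therefore called unmutated IgM.

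V gene use was broad and led by the large IGHV1 family. The set used 106 V calls, of which 15 made up 50.7% ± 0.698 of clonotypes (SD, n = 10). IGHV1 genes accounted for 64.1% ± 0.616, followed by IGHV9 with 6.34% ± 0.245, IGHV8 with 5.76% ± 0.330, IGHV14 with 5.53% ± 0.249 and IGHV3 with 5.27% ± 0.417. Next came the families close to the D segments, IGHV5 at 4.13% ± 0.338 and IGHV2 at 2.61% ± 0.0962. The remaining families, from IGHV6 at 2.38% ± 0.152 to IGHV12 at 0.102% ± 0.0440, were rarer.

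The most used gene, IGHV1-26, ranged from 3.89% to 4.99% of clonotypes over the 10 mice. IGHV3-6 followed with 4.04% to 5.12%, IGHV1-64 with 4.04% to 4.595% and the joint call IGHV1-62-3/IGHV1-72 with 3.83% to 4.44%. IGHV1-82 (3.62% to 4.42%) and IGHV9-3 (3.63% to 4.15%) had the next highest means. The ranges of neighbours among these 6 overlapped, so their order was not resolved. The others of the first 15, IGHV1-80, IGHV8-12, IGHV1-9, IGHV1-15, IGHV1-50, IGHV1-81, IGHV1-55, IGHV1-53 and IGHV1-5, had means from 2.21% to 3.26%. Genes listed by RefSeq (GRCm38.p6) as pseudogenes carried 1345 clonotypes, 0.788% of the set.

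**Figure D1:**
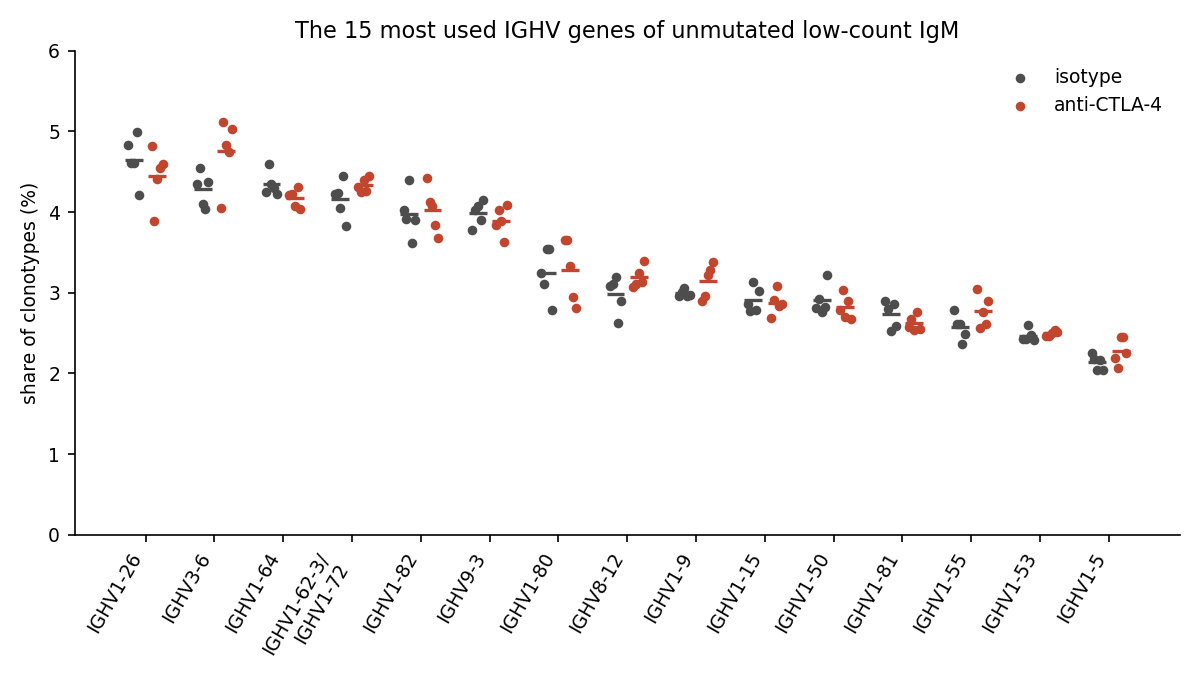
Share of unmutated low-count IgM clonotypes (%, y axis) for the 15 most used V genes (x axis), with 1 point per mouse and a line at the mean of each group of 5. The groups overlap at each of these genes, and the highest value is 5.12% for IGHV3-6.

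One common V gene was absent by the rule. IGHV1-69 supplied 5703 low-count IgM clonotypes, 2.77% of all of them, and 0 were unmutated, which allows a share of up to 0.0526%, counting error only. Exactly 1 mismatch was carried by 86.8% of them. Of 4960 IGHV1-69 sequences with a single mismatch, 4956 (99.9%) had the same substitution, T202G, counted from the first aligned V base. It was present in all 10 mice, and in no mouse did it make up less than 99.7% of such sequences. The 30 bases around it are printed to show the site, first from the germline sequence in the deposited alignment and then as observed, with the differing base in capitals.
IGHV1-69, germline: aagttcaagggcaagTccacattgactgta
IGHV1-69, observed: aagttcaagggcaagGccacattgactgta

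The other genes with a low unmutated share were few. The joint call IGHV8-12/IGHV8-5 had 0 unmutated of 121 clonotypes, with a median of 40 mismatches. IGHV14-1/IGHV14-2 was unmutated in 48.6% of 4435 clonotypes, IGHV1-56 in 58.4% of 137 and IGHV1-23 in 76.3% of 59. The median over the 97 V calls with at least 50 low-count IgM clonotypes was 86.3%.

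The J genes differed in use and in the CDR3 they formed. IGHJ2 was the most used at 31.9% ± 0.404 of clonotypes, followed by IGHJ4 at 27.8% ± 0.394, IGHJ3 at 24.7% ± 0.470 and IGHJ1 at 15.6% ± 0.318 (SD, n = 10). The 4 ranges did not overlap between mice. Among D segments, IGHD1-1 alone was called in 24.9% to 26.0% of clonotypes, genes of the IGHD2 family in 37.2% ± 0.425 and IGHD4-1 in 8.32% ± 0.295. No D segment was called in 11.5% ± 0.271. Clonotypes with IGHD1-1 joined IGHJ1 in 21.7% ± 0.668, whereas those with IGHD3-2 did so in 2.11% ± 0.515.

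CDR3, counted here without the conserved cysteine and tryptophan at its ends, was 11.8 residues long on average and nearly alike in all mice, with a range of mouse means from 11.7 to 11.9. The most frequent length was 11 residues. Lengths of 8 or fewer residues made up 10.9% ± 0.387 of clonotypes and lengths of 16 or more 7.45% ± 0.328. Length followed the J gene: the mean was 12.9 ± 0.0398 residues with IGHJ1, 12.6 ± 0.0546 with IGHJ4, 11.3 ± 0.0448 with IGHJ3 and 10.9 ± 0.0476 with IGHJ2 (SD, n = 10). It was also longer with IGHV8 genes (13.03 ± 0.0850 residues) than with IGHV6 genes (9.91 ± 0.130).

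Tyrosine was the most frequent CDR3 residue at 20.8% ± 0.136, ahead of alanine at 13.1% ± 0.0393, aspartate at 10.7% ± 0.0970, glycine at 9.77% ± 0.0699 and arginine at 9.49% ± 0.0477. The tyrosine share was 23.2% ± 0.180 with IGHJ4 and 17.5% ± 0.217 with IGHJ1. Added bases at both joints, taken from the deposited lengths of clonotypes with a D call, averaged 7.31 ± 0.0278 per clonotype, and 1.17% ± 0.0668 of those clonotypes had none.

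**Figure D2:**
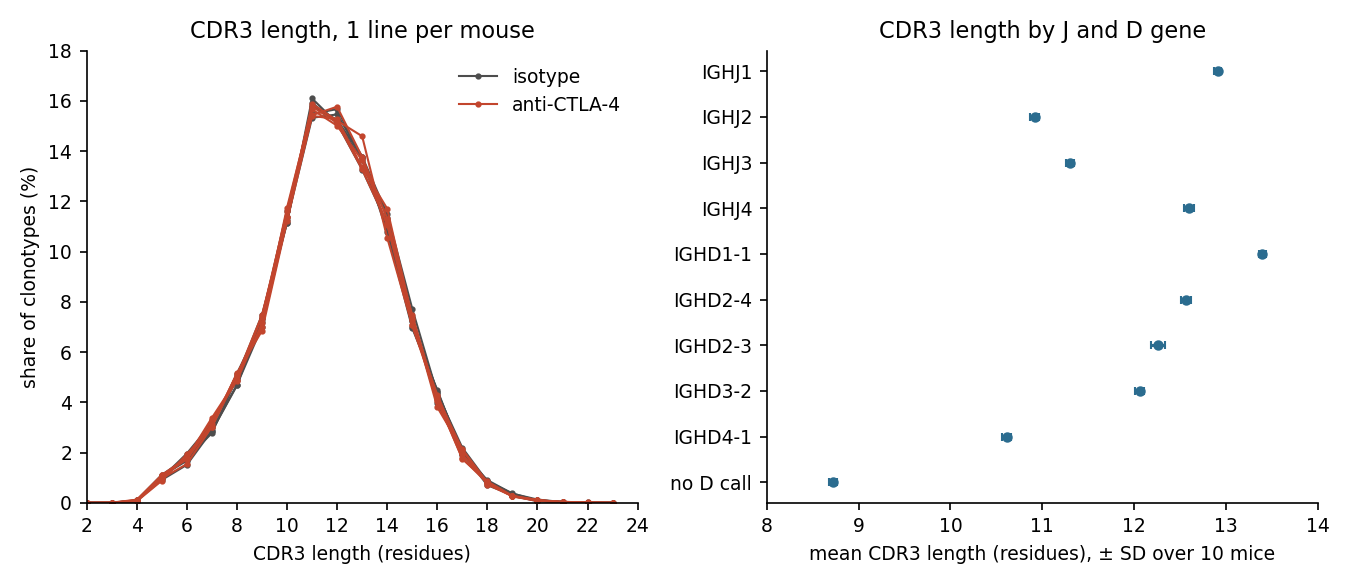
Left, share of clonotypes (%) at each CDR3 length in residues, with 1 line per mouse coloured by group; right, mean CDR3 length by J or D gene, with bars of 1 SD over 10 mice and an x axis that starts at 8. The 10 lines lie on each other with peaks at 11 or 12 residues, and means run from 8.72 residues without a D call to 13.4 with IGHD1-1.

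Whether CTLA-4 blockade altered this compartment was asked by comparing 5 with 5 mice. A single V gene passed the test, IGHV12-3, a V gene of B-1 cells, which was lower in anti-CTLA-4 mice. Of 88 V genes tested, 1 passed an adjusted p of 0.05 (1.14%; edgeR quasi-likelihood test, Benjamini-Hochberg), and DESeq2 also called 1, the same gene. J use, V families by position and CDR3 composition gave no call.

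IGHV12-3 had 19, 44, 25, 14 and 26 clonotypes in isotype mice 1 to 5 and 5, 13, 10, 14 and 11 in anti-CTLA-4 mice 1 to 5. As shares of the set these were 0.123%, 0.174%, 0.132%, 0.0971% and 0.155% against 0.0391%, 0.104%, 0.0828%, 0.0606% and 0.0569%. The lowest isotype value lay below the highest anti-CTLA-4 value, so the groups overlapped by that pair of mice. The means were 0.136% ± 0.0296 and 0.0686% ± 0.0250 (SD, n = 5 each), and the log2 difference, anti-CTLA-4 over isotype, was -1.07 (SE 0.238, edgeR adjusted p = 0.00830). The call was lost without isotype mouse 2 (log2 -0.94, edgeR adjusted p = 0.0971), without isotype mouse 5 (-1.03, 0.0558) and without anti-CTLA-4 mouse 4 (-1.01, 0.0657), as well as among counts of at least 2, where the gene was too rare to be tested (0.112% ± 0.0652 against 0.168% ± 0.0673). The part of the unequal shares of sequences with a count of 1 in this difference was not tested.

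The same gene was compared in sets outside the rule. Among non-productive IgM rearrangements, IGHV12-3 made up 1.70% ± 0.437 in anti-CTLA-4 and 1.61% ± 0.433 in isotype mice (SD, n = 5 each). Among mutated IgM clonotypes it was 0.0498% ± 0.0205 against 0.104% ± 0.0625, and among unmutated IgD clonotypes 0.0305% ± 0.0211 against 0.0253% ± 0.0302, from 9 and 7 clonotypes. Whether the difference between groups differed between these sets was not tested.

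IGHV12-3 clonotypes had a narrow CDR3. A length of 12 residues was seen in 85.6% of 181 clonotypes, and 84.5% combined that length with glycine at position 6. This pattern, picked after the sequences were seen, was present in 112 of 128 isotype clonotypes and 41 of 53 anti-CTLA-4 clonotypes. IGHJ1 was used by 51.4% of IGHV12-3 and by 64.6% of IGHV11-2 clonotypes. The 2 IGHV12-3 junctions of this form that were shared by most mice, 5 and 4, are printed to show it, with D and added bases in capitals and the glycine codon the last of them.
IGHV12-3 with IGHJ1, in 5 mice: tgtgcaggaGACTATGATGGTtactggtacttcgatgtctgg
IGHV12-3 with IGHJ1, in 4 mice: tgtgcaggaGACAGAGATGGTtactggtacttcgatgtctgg

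The other genes of the B-1 list gave no call. IGHV11-2 was 0.154% ± 0.0264 in anti-CTLA-4 and 0.175% ± 0.0445 in isotype mice, and IGHV7-1 was 0.198% ± 0.0381 and 0.176% ± 0.0186 (SD, n = 5 each). IGHV11-1 had 1 clonotype in anti-CTLA-4 and 8 in isotype mice and was not tested. The list of 4 genes summed to 0.421% ± 0.0514 against 0.496% ± 0.0265. Over the 3 tested genes the median log2 difference was -0.20, and over all 88 it was -0.00468.

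**Figure D3:**
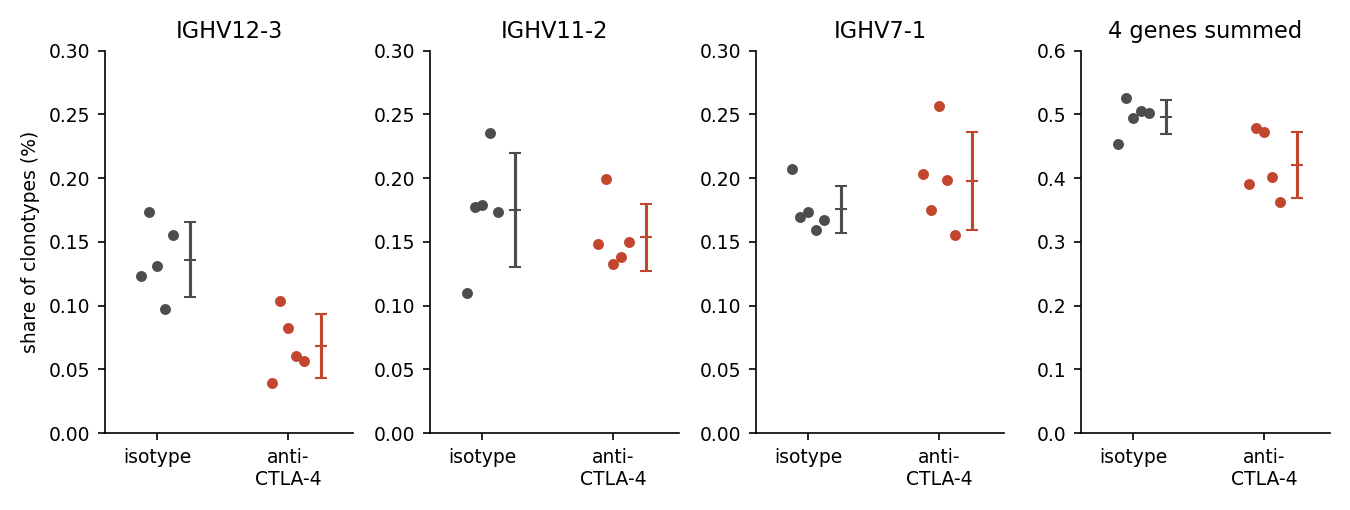
Share of unmutated low-count IgM clonotypes (%) for 3 genes of the B-1 list and for all 4 summed, with 1 point per mouse, and the mean with 1 SD beside each group of 5. For IGHV12-3 the anti-CTLA-4 points run from 0.0391% to 0.104% and the isotype points from 0.0971% to 0.174%, and the groups overlap in all 4 panels.

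The V genes next in order of p fell short of the threshold. IGHV1-85 was 0.845% to 0.899% in anti-CTLA-4 and 1.01% to 1.05% in isotype mice, ranges that did not overlap, with a log2 difference of -0.22 (SE 0.0634, edgeR adjusted p = 0.0814). IGHV1-49 was 0.176% to 0.266% and 0.0971% to 0.166%, again without overlap, with a log2 difference of 0.59 (SE 0.177, edgeR adjusted p = 0.0814). Both genes were picked by their small p, so the separate ranges are no support beyond it. IGHV10-3, IGHV5-9-1 and IGHV5-4 had log2 differences of -0.25, -0.35 and -0.19, and IGHV3-6, IGHV1-61, IGHV1-55 and IGHV1-5 of 0.15, 0.15, 0.11 and 0.11, with edgeR adjusted p from 0.0852 to 0.470. Leaving out 1 mouse brought 3 of these genes past the threshold, IGHV1-49 without anti-CTLA-4 mouse 5 (edgeR adjusted p = 0.0347), and IGHV3-6 (0.0247) and IGHV10-3 (0.0355) without anti-CTLA-4 mouse 1. With other mice left out, their edgeR adjusted p rose to as much as 0.235, 0.320 and 0.293.

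None of the 4 J genes, the 3 groups of V families or the 9 CDR3 measures passed after adjustment (0% called in each; two-sided exact permutation test, Benjamini-Hochberg), and 0, 0 and 2 had an unadjusted p under 0.05. IGHJ1 was 15.7% ± 0.359 in anti-CTLA-4 and 15.5% ± 0.289 in isotype mice. Distal families, IGHV1 and IGHV8, made up 70.1% ± 0.581 and 69.5% ± 0.799 of clonotypes. Mean CDR3 length was 11.8 residues in both groups, with a difference of -0.0364. Tyrosine was 20.7% ± 0.125 of CDR3 residues against 20.9% ± 0.0718 (exact permutation p = 0.0317, adjusted 0.179), and lysine or arginine 10.3% ± 0.0615 against 10.2% ± 0.0260 (exact permutation p = 0.0397, adjusted 0.179). The share of clonotypes with an IgD partner was 1.01% ± 0.190 in anti-CTLA-4 and 1.61% ± 0.553 in isotype mice (exact permutation p = 0.0873). Leaving out 1 mouse gave exact permutation p from 0.0159, without isotype mouse 3, to 0.135. Isotype mouse 3 had the lowest share of its group, 0.879%, within the anti-CTLA-4 range of 0.745% to 1.28%. The share of sequences with a count of 1, given above, was higher in the group with fewer partners, and its part in the partner difference was not tested.

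IgM and IgD of a naive cell come from 1 rearrangement, so the unmutated IgD clonotypes of the same mice, chosen by the same rule but for the constant gene, served as the closest set (58349 clonotypes). J use differed in the same direction in all 10 mice. IGHJ3 and IGHJ4 were more frequent with IgM, and IGHJ1 and IGHJ2 more frequent with IgD. Of 16 measures, 14 passed (87.5%; two-sided exact sign-flip permutation test over 10 within-mouse differences, Benjamini-Hochberg).

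IGHJ3 ranged from 24.1% to 25.6% of IgM clonotypes and was 21.0% ± 0.444 of IgD clonotypes, a difference of 3.75 percentage points (exact permutation test, adjusted p = 0.00312). IGHJ4 was 27.8% ± 0.394 against 25.1% ± 0.881, a difference of 2.62. IGHJ2 was 31.9% ± 0.404 against 35.9% ± 0.739, a difference of -3.94, and IGHJ1 15.6% ± 0.318 against 18.02% ± 0.523, a difference of -2.42, each with the same adjusted exact permutation p, the smallest this family allows being 0.00195 before adjustment. With IgD weighted to the V gene mix of IgM in the same mouse, the differences were 3.69 for IGHJ3, 2.62 for IGHJ4, -3.77 for IGHJ2 and -2.54 for IGHJ1. Among counts of at least 2, IGHJ4 no longer passed (difference 1.08, adjusted exact permutation p = 0.0913), while IGHJ3 differed by 7.29. IgD held more sequences with a count of 1, 73.7% ± 9.80 against 62.9% ± 11.3, and the part of count in these differences was not tested beyond that alternative.

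**Figure D4:**
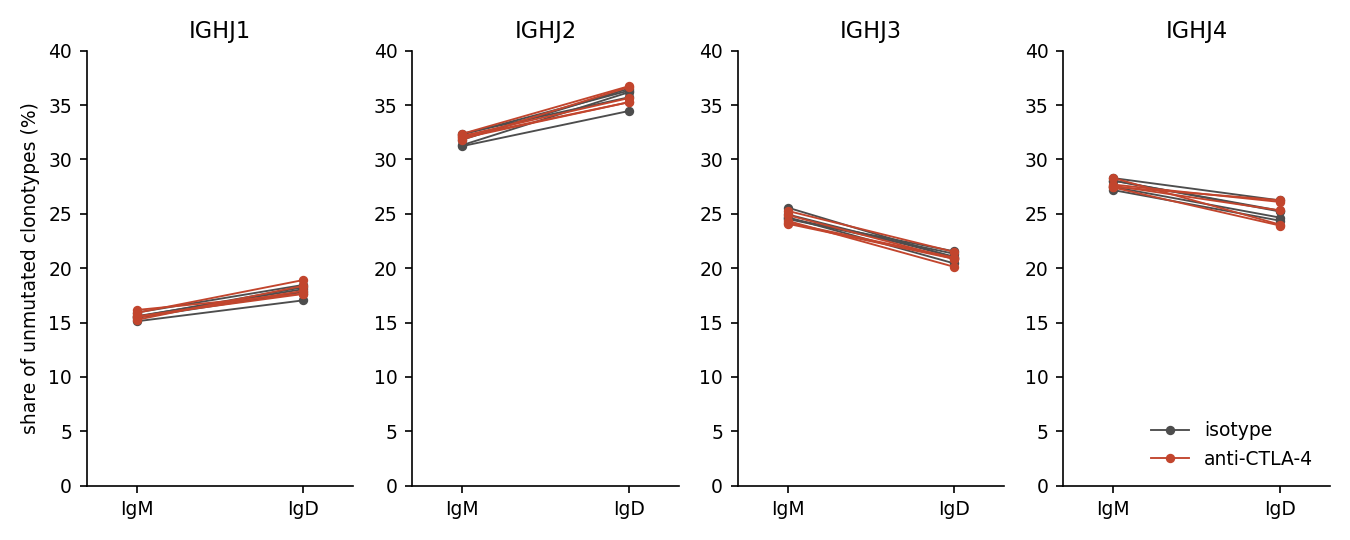
Share of unmutated low-count clonotypes (%, y axis from 0) that used each J gene with IgM and with IgD, with 1 line per mouse coloured by group. All 10 lines rise from IgM to IgD for IGHJ1 and IGHJ2 and fall for IGHJ3 and IGHJ4.

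V families differed as well. The distal families made up 69.8% ± 0.727 of IgM and 73.2% ± 0.758 of IgD clonotypes, lower with IgM in 10 of 10 mice (difference -3.32, adjusted exact permutation p = 0.00312), and the families between the distal and the D-proximal ones 23.4% ± 0.613 and 20.6% ± 0.903. CDR3 measures differed less: length by 0.04997 residues, tyrosine by 0.149 percentage points and glycine by 0.176, all higher with IgM, and aspartate or glutamate by -0.393. Serine (0.0477, adjusted exact permutation p = 0.131) and added bases (-0.00369, 0.852) did not pass.

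Among single V genes, 39 of 81 tested passed (48.1%; edgeR quasi-likelihood test with the mouse as a block, Benjamini-Hochberg), 21 higher (25.9%) and 18 lower (22.2%) with IgM; DESeq2 called 27, all among the 39. IGHV10-1 ranged from 0.741% to 1.14% with IgM and from 0.298% to 0.706% with IgD, with a log2 difference of 0.81 (SE 0.0844, edgeR adjusted p = 1.44e-11). IGHV6-3 (log2 0.57), IGHV6-6 (0.67), IGHV13-2 (0.86), IGHV10-3 (0.48), IGHV1-47 (0.65), IGHV7-3 (0.60), IGHV5-17 (0.41), IGHV5-9-1 (0.62) and IGHV14-1/IGHV14-2 (0.27) were also higher with IgM. IGHV1-64 ranged from 4.04% to 4.595% with IgM and from 4.61% to 5.10% with IgD, without overlap (log2 -0.19, SE 0.0297, edgeR adjusted p = 4.84e-07). IGHV1-15, IGHV1-50, IGHV1-52, IGHV1-81, IGHV1-19, IGHV1-9, IGHV1-76, IGHV1-63 and IGHV5-16 were lower, with log2 differences from -0.30 to -0.15. Of 42 IGHV1 genes tested, 17 were lower and 3 higher with IgM, whereas of 22 genes of the middle families 11 were higher and 0 lower. Both tested genes of the B-1 list were higher with IgM, IGHV11-2 by 0.53 and IGHV7-1 by 0.42 on the log2 scale.

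A rearrangement that is out of frame or holds a stop codon cannot make a heavy chain, and its transcript is carried by a cell that survives on its other allele. The set was compared with the 12448 non-productive clonotypes of IgM, chosen by the same rule but for productivity. Of their sequences, 55.2% ± 3.48 were out of frame and the rest were in frame but marked as non-productive in the deposited tables. A count of 1 was recorded for 75.9% ± 6.56 of these non-productive sequences, against 62.9% ± 11.3 in the set (SD, n = 10). The part of count in the comparison was not tested beyond the alternative of counts of at least 2. The contrast was large: 59 of 86 genes passed (68.6%; edgeR quasi-likelihood test with the mouse as a block, Benjamini-Hochberg), 31 more frequent (36.0%) and 28 less frequent (32.6%) among productive clonotypes, and DESeq2 called 57. Against out-of-frame rearrangements alone, 64 of 86 genes passed, 55 of them among the 59. Of these 64, 36 were more and 28 less frequent among productive clonotypes.

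IGHV5-2, also known as VH81X, the V gene with the highest early rearrangement in fetal liver, was 1.40% to 3.81% of non-productive and 0.0497% to 0.144% of productive clonotypes. The groups did not overlap, and the log2 difference, productive over non-productive, was -4.74 (SE 0.167, edgeR adjusted p = 2.30e-42), a ratio of 26.7 in favour of the non-productive set. IGHV1-11 behaved alike, with 1.54% to 2.72% against 0.0414% to 0.159% and a log2 difference of -4.81. IGHV1-23 (log2 -5.35), IGHV3-3 (-4.27), IGHV12-3 (-4.10), IGHV8-2 (-3.79), IGHV1-2 (-3.35, a pseudogene in RefSeq), IGHV11-2 (-2.90), IGHV1-49 (-2.75) and IGHV15-2 (-2.09) were likewise less frequent in the productive set, each in 10 of 10 mice.

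The genes that were more frequent among productive clonotypes changed less. IGHV9-3 was 3.94% ± 0.163 against 2.17% ± 0.264 of non-productive clonotypes (SD, n = 10), with a log2 difference of 0.75 (SE 0.0861, edgeR adjusted p = 1.46e-12). IGHV1-80 (0.77), IGHV1-82 (0.72), IGHV8-8 (0.72), IGHV1-15 (0.68), IGHV1-52 (0.62), IGHV1-9 (0.61), IGHV1-81 (0.60), IGHV1-50 (0.56) and IGHV1-64 (0.48) followed. By position, 21 of 49 distal genes were more and 9 less frequent among productive clonotypes, against 3 and 7 of 13 D-proximal genes. The 3 tested genes of the B-1 list were all less frequent, with a median log2 difference of -2.90 against 0.06 over all 86 genes.

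**Figure D5:**
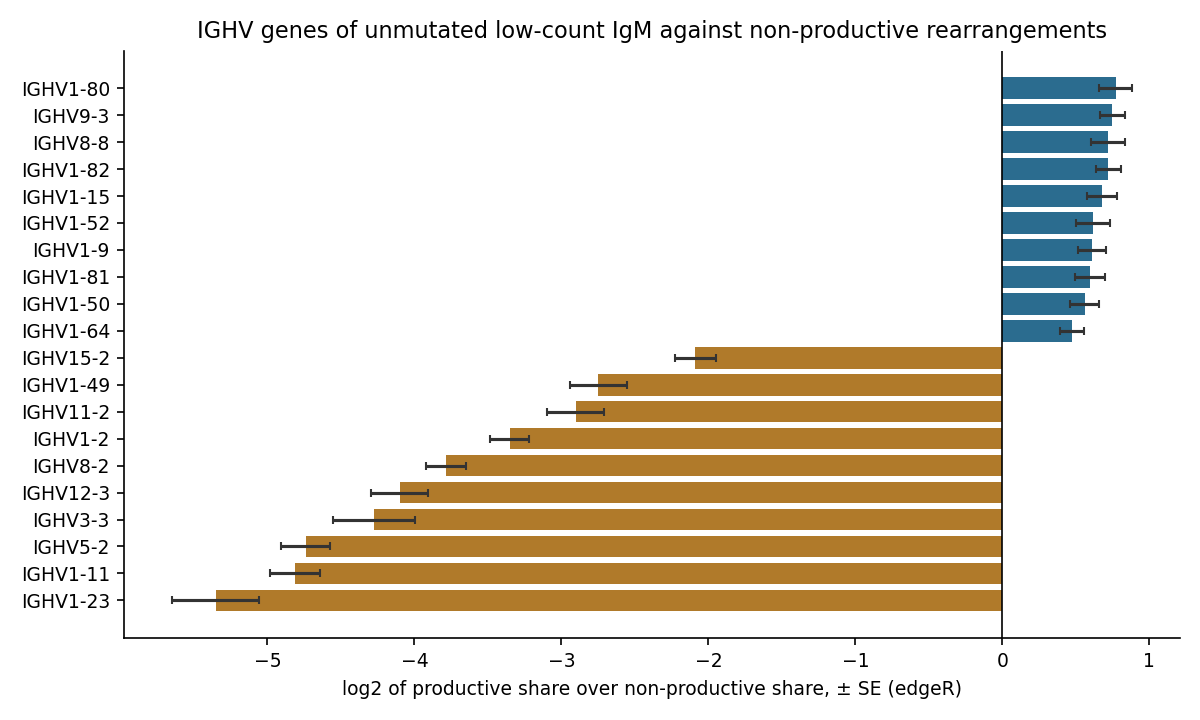
log2 ratio of the productive over the non-productive share of IgM clonotypes (x axis, bars of 1 SE, edgeR) for the 10 best supported V genes per direction (y axis), coloured by direction. Bars to the left reach -5.35 for IGHV1-23, and those to the right reach 0.77 for IGHV1-80.

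Mutated low-count IgM clonotypes of the same mice (41517) differed in CDR3, though the rule itself separates the sets. Of 16 measures, 11 were called (68.8%; two-sided exact sign-flip permutation test, Benjamini-Hochberg), among them the shares of D-proximal and middle V families. The V alignment runs into the junction, and 18.9% of sequences with a mismatch had it only there. The called CDR3 and J measures were therefore set beside a count of mismatches before the junction alone. CDR3 was longer in unmutated clonotypes by 0.124 residues (9 of 10 mice, adjusted exact permutation p = 0.00625) and by 0.106 with that count. Lysine or arginine was higher by 0.579 and 0.253 percentage points, aspartate or glutamate by 0.667 and 0.386, IGHJ3 by 0.686 and 0.535, and serine lower by -0.551 and -0.296, all passing both ways. Hydropathy (-0.0588 and -0.0368) and IGHJ2 (-1.01 and -1.39) passed both ways too. Glycine (0.417 and 0.0622) and tyrosine (-0.207 and -0.0178) passed only with mismatches in the whole alignment. IGHJ2 (-1.01) did not pass without IGHV1-69, whose clonotypes all fell in the mutated set (-0.486, adjusted exact permutation p = 0.129). For the same reason shares of V families are not compared between these sets.

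Sharing between mice was rare. Of 169914 different rearrangements, 169219 were found in 1 mouse, 695 in 2 or more and 23 in 4 or more. The shared ones were shorter: CDR3 averaged 11.8 residues for rearrangements in 1 mouse, 9.65 for those in 2 or more and 9.26 for those in 4 or more. No D segment was called for 11.1%, 47.1% and 56.5% of these rearrangements. Added bases, averaged only over rearrangements with a D call, were 7.32, 4.79 and 2.8. Junctions A, B, C and E, without a D call, are thus left out of these averages. Genes of the B-1 list made up 0.395%, 5.04% and 39.1%, the last being 9 of 23 rearrangements. These are descriptions without a test.

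Junction A had deposited counts of 43, 20, 33, 34 and 98 in isotype mice 1 to 5 and of 67, 6, 10, 7 and 25 in anti-CTLA-4 mice 1 to 5. Its counts, from 6 to 98, lay above the mean of 1.69 ± 0.208 per sequence of the set (SD, n = 10). Over all classes and counts, the highest value of this rearrangement in any mouse was 1683. Junctions B, C and D had up to 74, 85 and 11 counts in the set, and E up to 8. Isotype mice 3 and 4 shared 90 rearrangements, 0.328 per 1000000 possible pairs of clonotypes, against 11 to 50, or 0.0448 to 0.231 per 1000000, in the other 44 pairs of mice. The rearrangements with more counts in another mouse were 0.454% ± 0.134 of clonotypes, and IGHV12-3 was called without them as well (log2 -1.03, edgeR adjusted p = 0.0213).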

How the data were processed

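Heavy- and light-chain receptor libraries with molecular identifiers were made from RNA of whole cells, per the labels' protocols. Each mouse had 1 table with AIRR column names. It gives a whole-number count per assembled sequence, deposited without normalisation and used so. Not given in the sources used here: whether it counts reads or molecules, the aligner and the germline set. Lengths of added bases (np1 and np2) were taken as the authors deposited them. They equalled the gap between aligned V and D positions in 70.3% of clonotypes with a D call, and the positions served as an alternative. Aligned V and J parts can run past the segment, so capitals in printed junctions follow the deposited added bases and D positions.

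Joint V calls (6.44% of clonotypes) were kept as joint names. All 105 V gene names matched RefSeq (GRCm38.p6), used for names and types only; no coordinates are given. The most counted sequence stood for a clonotype. D-proximal families were IGHV2 and IGHV5, distal ones IGHV1 and IGHV8. The members, lists and tests were chosen with earlier results of these data known.

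Measures were reduced to a single value per mouse. The groups (5 against 5, smallest p 0.00794) were compared by two-sided exact permutation and sets within mice by exact sign-flip permutation, with Benjamini-Hochberg adjustment over 4 J genes, 3 locus groups, 9 CDR3 measures or 16 within-mouse measures. Clonotype numbers per V gene were tested with edgeR 4.0.16 (glmQLFit, glmQLFTest, TMM, filterByExpr) in R 4.3.3, with DESeq2 1.42.0 as an alternative, and scripts were tested on simulated data. Named V genes were, per comparison, those past an adjusted p of 0.05 up to the 10 smallest p per direction, or the 5 smallest where fewer than 5 passed; the 15 most used; the 5 least unmutated with at least 50 clonotypes; and the 5 rearrangements in most mice. P-values measure the spread between these mice, each with 1 library, and nothing in the labels says how they were housed or batched. Alternatives were counts under 10 or of at least 2, 0 or 1 mismatches, leaving out rearrangements with more counts in another mouse, each mouse left out, weighting by count, no TMM, no filter, and with or without blocks. Light chains and other classes were left out except where named.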

Additional observations from a re-analysis of the deposited data

Results flagged for a closer look

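In 4 of 94 group values examined, 1 mouse stood apart from the other 4 of its group by Dixon's gap; chance gives about 1 in 20. IGHV1-85 was 0.845% of clonotypes in anti-CTLA-4 mouse 2 and 0.886% to 0.899% in the others. IGHV5-9-1 was 0.449% in isotype mouse 5 and 0.285% to 0.332% in the others. IGHV11-2 was 0.199% in anti-CTLA-4 mouse 2 and 0.132% to 0.150% in the others. IGHV11-1 was 0.00433% in anti-CTLA-4 mouse 4, from 1 clonotype, and not seen in the other 4. None of the 32 within-mouse differences differed between the groups after adjustment (exact permutation test, Benjamini-Hochberg). The nearest was tyrosine in unmutated less mutated IgM, -0.327 percentage points in anti-CTLA-4 and -0.0875 in isotype mice (exact permutation p = 0.00794, the smallest this design can give, adjusted 0.127).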

How the results depend on the processing

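The number of V genes called between groups was 1 and became 0 among counts of at least 2 and 2 with the replicate block, and ranged from 0 to 3 when 1 mouse was left out. Correlations of V use deviations between same-numbered mice ran from -0.0343 to 0.246, and those between mice of different numbers from -0.282 to 0.235. For replicates 3 and 4 the same-numbered value was the highest, and for replicates 1, 2 and 5 it was not. Whether the replicate numbers pair the mice was not tested, and with 5 pairs the smallest exact p is 0.0625. Among counts of at least 2, calls fell to 13 of 57 genes for IgM over IgD and to 38 of 57 for productive over non-productive. Leaving out 1 mouse gave 30 to 39 and 51 to 59 calls. CDR3 measures called between groups ranged from 0 to 2 on leaving out 1 mouse (2 without anti-CTLA-4 mouse 4), and the IgD partner difference from -0.786 to -0.498.

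Differences that did not pass under the rule as given changed sign in places. Between groups, among counts of at least 2: IGHV1-61 -0.0565 (log2), IGHJ2 -0.579, IGHJ4 0.0477, middle families 0.671, distal families -0.589, serine 0.0365 and aspartate or glutamate -0.103; weighted by count: CDR3 length 0.000324, serine 0.0411 and aspartate or glutamate -0.0944; with mismatches before the junction: hydropathy -0.000322. For IgM less IgD, added bases became 0.000594 with 0 or 1 mismatches, 0.0290 from alignment positions and 0.0399 with an equal V gene mix. For unmutated less mutated IgM, mismatches before the junction gave IGHJ1 0.0324, distal families -2.02 and added bases -0.0188, and leaving out IGHV1-69 gave a net charge of 0.0322. Of these, distal families (adjusted exact permutation p = 0.0117) and net charge (0.00568) passed with the changed sign. Without IGHV1-69, distal families differed by 4.99 instead (adjusted exact permutation p = 0.00347), so their sign depended on the setting. On leaving out 1 mouse, ranges that crossed 0 were -0.273 to 0.00317 for IGHJ4, -0.382 to 0.0265 for middle families, -0.000906 to 0.00304 for hydropathy, -0.000421 to 0.0151 for net charge, -0.0377 to 0.00854 for glycine and -0.0173 to 0.0744 for aspartate or glutamate between groups, -0.0129 to 0.00514 for added bases in IgM less IgD, and -0.0172 to 0.381 for distal families in unmutated less mutated IgM. The cause was not tested.

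The alternatives for mismatches before the junction, alignment positions, the equal V gene mix, out-of-frame rearrangements, IGHV1-69 and the B-1 list were chosen after seeing the data. Most sequences had a count of 1, so rare genes such as IGHV12-3 rest on 5 to 44 clonotypes per mouse, and IGHV1-69 lies outside every value of the set.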
